A study of Mus musculus with 9 samples.

Results

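The genes described here are 10 immediate early genes of the mouse, taken by symbol from the 40879 gene symbols listed for each library. They are Jun and Junb, Fos, Fosb and Fosl1, Atf3, Egr1, Nr4a1 and Nr4a2, and Ier3. Jun, Ier3 and Nr4a2 were chosen by their low levels in irradiated against normal constructs, and the others by name. For that reason irradiated against normal values are given as a description without a test, and so are the values of these 3 genes against cocultured constructs.

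The constructs were engineered 3D muscle made from C2C12 cells, a single established mouse myoblast line that fuses into myotubes in differentiation medium, labelled WT and embedded in matrix prepared from muscle tissue. Irradiated constructs had received 1 X-ray dose of 20 Gy, given to induce senescence, a lasting growth arrest with a changed secretion of proteins. Cocultured constructs had no irradiation of their own (0 Gy) but shared a dish with an irradiated construct, which exposed them to what it secreted. Normal constructs were not irradiated (0 Gy). All groups had 2 days in growth medium with fetal bovine serum and then 10 days in medium with equine serum, and each has 3 libraries. In the design text 2 constructs of a condition were kept per dish, and 2 samples, not 3, are stated for irradiated and for normal constructs. Constructs of a dish are not independent cultures, and the p-values cover the spread among these libraries, whatever its source. How long after irradiation and after the last change of medium the constructs were harvested is not known here.

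Immediate early genes are transcribed within minutes of a stimulus such as serum, stretch or injury, without the need for new protein, from promoters bound by factors already present in the nucleus. Several encode the subunits of AP-1, a dimer of a Jun protein with a Fos, ATF or further Jun protein that binds the TGANTCA element (TRE) or the related cyclic AMP response element TGACGTCA (CRE). Others encode the zinc finger factor Egr1, the orphan nuclear receptors of the NR4A family and the small survival protein Ier3. Their mRNAs are mostly short-lived, and in muscle they are known to respond to exercise, injury and handling.

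RNA was read at the 3' end, so that a transcript yields about 1 fragment whatever its length, and levels are normalised counts (CPM) on library sizes scaled by TMM. Library totals were 6485655 to 8290468 counts in irradiated, 7506605 to 8035763 in cocultured and 4840993 to 6607557 in normal constructs. The libraries stood apart within groups. Genes without a count were sought among those averaging 20 to 50 CPM of the library total over the normal and cocultured libraries. Their share was 20.8% in irradiated 2, 17.3% in irradiated 3 and 5.50% in irradiated 1. It was 0.235% to 3.12% in cocultured libraries and 0.101% to 3.93% in normal libraries. Irradiated libraries had no part in choosing these genes, so genes lower after irradiation could add to the irradiated shares. Mitochondrial transcripts took 21.7% of irradiated 1 and 29.7% of normal 3, against 5.76% to 13.4% of the other libraries. The symbol Gm26917 alone took 12.01%, 4.76% and 5.28% of irradiated libraries and 3.38% to 3.91% of cocultured libraries. It took 23.9%, 27.4% and 9.47% of normal 1, 2 and 3. Its own part in the member levels was not tested, though calls without it and the mitochondrial genes are given below. All 18 markers of the labelled tissue, muscle, had counts and summed to 8359 to 44686 CPM in irradiated, 5259 to 9144 in cocultured and 5128 to 72016 in normal libraries, highest in irradiated 1 and normal 3. In bulk RNA, fewer cells of a type and less RNA per cell cannot be told apart.

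The members together took 0.0683%, 0.150% and 0.0974% of the counts in irradiated 1, 2 and 3, against 0.213%, 0.224% and 0.201% in cocultured libraries and 0.335%, 0.213% and 0.111% in normal libraries. On TMM-scaled sizes their summed level was 944, 1170 and 784 CPM in irradiated, 1775, 1863 and 1709 CPM in cocultured and 3471, 2339 and 2000 CPM in normal libraries. Nr4a2 alone gave 1462 of the 3471 CPM in normal 1. Of the 10 members, 8, 5 and 7 had a count in irradiated 1, 2 and 3, while 9, 9 and 10 had one in cocultured libraries and 9, 10 and 10 in normal libraries. The counts of each are shown by library in the plot of member levels.

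**Figure D1:**
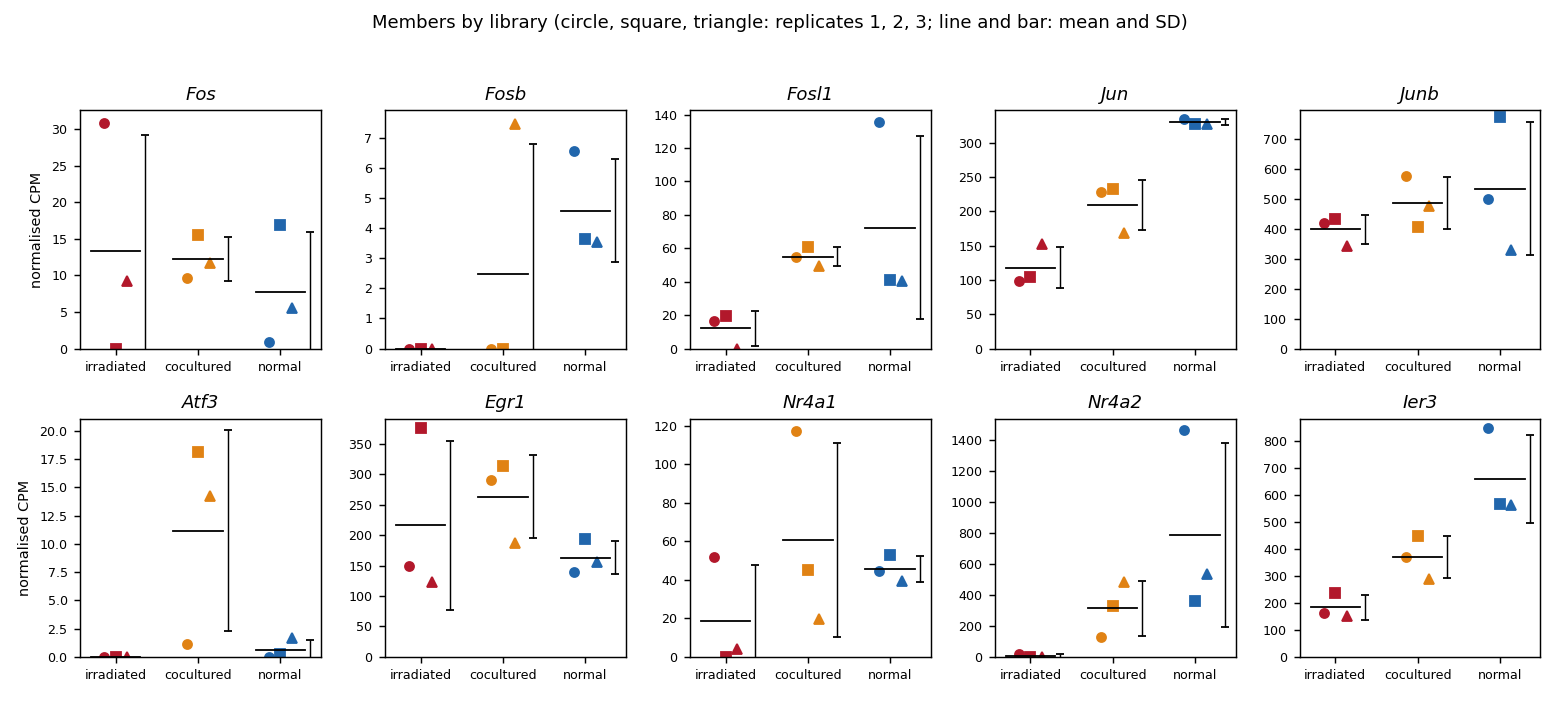
Level of each of the 10 members in every library, in CPM on TMM-scaled sizes, with irradiated, cocultured and normal constructs from left to right; each point is a library, the line is the mean and the bar the SD of 3 libraries. Jun and Ier3 are ordered irradiated, cocultured, normal without overlap, while Junb and Egr1 overlap in all 3 groups.

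The promoters of 8 of the 10 members were found in a RefSeq promoter table of build GRCm38.p6, an earlier build than the one named for the counts. The sequences below are the 150 bases before the annotated start, read in the direction of the gene, and are shown because the control of immediate early genes is written in such elements. Capitals mark every match, on either strand, to TGACGTCA, TGACATCA, TGANTCA, the CRE core TGACG, or the NF-kB motif. Jun, Nr4a2 and Ier3, the genes chosen for their low irradiated levels, are given first. The Jun window is chr4:95052223-95052372 on the minus strand, Nr4a2 is chr2:57124004-57124153 on the minus strand and Ier3 is chr17:35821563-35821712 on the plus strand. Fos lies at chr12:85473740-85473889 on the plus strand, Junb at chr8:84978749-84978898 on the minus strand and Nr4a1 at chr15:101266696-101266845 on the plus strand.
Jun: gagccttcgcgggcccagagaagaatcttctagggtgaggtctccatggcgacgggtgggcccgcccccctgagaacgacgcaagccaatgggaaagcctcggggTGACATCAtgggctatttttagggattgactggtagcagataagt
Nr4a2: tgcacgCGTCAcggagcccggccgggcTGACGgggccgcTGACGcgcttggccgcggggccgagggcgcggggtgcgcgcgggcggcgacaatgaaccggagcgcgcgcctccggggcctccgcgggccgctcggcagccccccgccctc
Ier3: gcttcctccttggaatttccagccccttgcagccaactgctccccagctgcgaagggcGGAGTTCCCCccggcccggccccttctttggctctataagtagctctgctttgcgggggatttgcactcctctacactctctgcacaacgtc
Fos: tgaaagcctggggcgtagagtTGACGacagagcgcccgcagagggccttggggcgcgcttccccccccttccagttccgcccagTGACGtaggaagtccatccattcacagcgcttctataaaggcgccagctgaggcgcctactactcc
Junb: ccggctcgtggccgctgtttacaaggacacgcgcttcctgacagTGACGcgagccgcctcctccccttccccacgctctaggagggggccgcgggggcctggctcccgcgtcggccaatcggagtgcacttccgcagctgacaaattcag
Nr4a1: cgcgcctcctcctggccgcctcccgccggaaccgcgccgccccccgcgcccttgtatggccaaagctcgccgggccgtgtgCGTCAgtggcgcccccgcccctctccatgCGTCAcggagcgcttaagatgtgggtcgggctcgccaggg

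The motifs were sought on both strands of the 250 bases before the start, in the 8 members and in all 32851 windows of the table. TGACATCA, the AP-1 and CRE-like element known from the Jun promoter, was found in Jun, 45 to 38 bases before the start, and in 2.93% of all windows. The CRE core TGACG, which is also a part of TGACGTCA, was found in Fos, Fosb, Junb, Atf3, Nr4a1 and Nr4a2, 6 of the 8, and in 17.8% of all windows. Neither the full CRE TGACGTCA (1.55% of windows), nor the TRE TGANTCA (6.75%), nor the CArG box bound by SRF (1.47%) was found within these bases in any of the 8. Sequence farther upstream was not searched and Egr1 and Fosl1 had no window, so these genes are not shown to lack such elements. The NF-kB motif was found in Fos, Fosb and Ier3, and in 7.25% of windows, and the Ier3 match lies 92 to 83 bases before the start. The EGR site GCGNGGGCG was found in Fosb, Nr4a1 and Nr4a2, and in 4.70% of windows. The CCAAT box was found in Jun, Junb and Ier3 (33.9% of windows) and TATAAA in Fos and Nr4a2 (12.4%). The Fos match lies at -33 to -28 from the start, and the Nr4a2 match, on the opposite strand, at -164 to -159. Of the 3 members put in the set for their irradiated levels, each carried a different combination of these elements.

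Jun encodes c-Jun, the strongest transactivator of the Jun proteins. It had 97.7, 104 and 152 CPM in irradiated 1, 2 and 3, 228, 232 and 168 CPM in cocultured libraries and 335, 328 and 327 CPM in normal libraries. Every irradiated library lay below every cocultured library, and every cocultured library below every normal library, and the normal libraries were within a few percent of each other. The means were 118 ± 29.7, 210 ± 36.2 and 330 ± 4.40 CPM in irradiated, cocultured and normal constructs (SD, n = 3 each). The log2 fold change was -1.48 ± 0.32 (SE) in irradiated against normal and -0.83 ± 0.32 in irradiated against cocultured constructs. In cocultured against normal constructs it was -0.65 ± 0.31, which did not pass edgeR's quasi-likelihood test after Benjamini-Hochberg adjustment (adjusted p = 1, unadjusted p = 0.0579). These normal libraries are the same ones against which Jun had been seen low.

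Junb encodes JunB, a Jun protein that activates weakly at single AP-1 sites and can oppose c-Jun. It had 418, 432 and 344 CPM in irradiated, 576, 405 and 478 CPM in cocultured and 499, 773 and 331 CPM in normal libraries. The 3 groups overlapped, and the normal libraries alone spanned the whole irradiated range. The means were 398 ± 47.2, 486 ± 86.0 and 534 ± 223 CPM in irradiated, cocultured and normal constructs (SD, n = 3 each). In edgeR's quasi-likelihood test the log2 fold change was -0.14 ± 0.34 in cocultured against normal (adjusted p = 1) and -0.29 ± 0.34 in irradiated against cocultured constructs (adjusted p = 0.986). The intervals of 2 standard errors around these were -0.82 to 0.55 and -0.98 to 0.40, so that differences of either sign within these bounds could not be told from 0. Against normal, irradiated constructs had -0.42 ± 0.34.

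The ratio of Jun to Junb counts within a library does not depend on how libraries are scaled. It was 0.234, 0.242 and 0.442 in irradiated, 0.396, 0.574 and 0.351 in cocultured and 0.671, 0.424 and 0.988 in normal libraries. The irradiated ratios overlapped those of both other groups, through irradiated 3 at 0.442, against cocultured 3 at 0.351 and normal 2 at 0.424. The ratio of Ier3 to Junb was 0.385, 0.552 and 0.443 in irradiated, 0.641, 1.11 and 0.609 in cocultured and 1.70, 0.735 and 1.71 in normal libraries. Every irradiated ratio of Ier3 to Junb lay below every cocultured and every normal one, while cocultured 2 lay above normal 2. Nothing is read from this separation, because Ier3 was chosen for low irradiated values and Junb was not. Egr1 to Junb gave 0.356, 0.871 and 0.356 in irradiated, 0.504, 0.775 and 0.390 in cocultured and 0.281, 0.250 and 0.470 in normal libraries, with overlap of all groups.

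**Figure D2:**
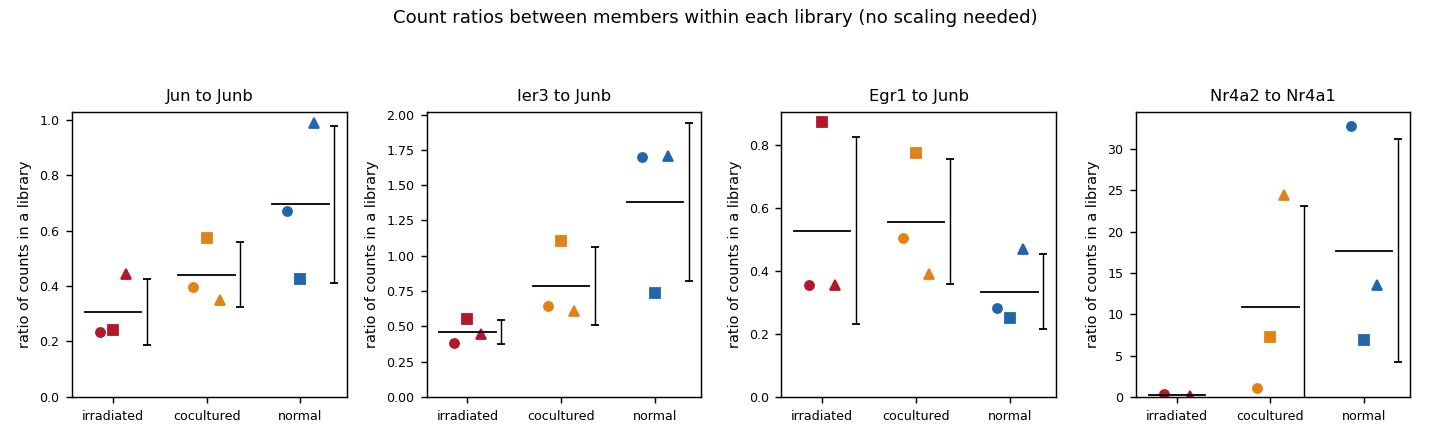
Ratios of the counts of 2 genes within each library, on linear axes that start at 0, for irradiated, cocultured and normal constructs from left to right; points are libraries, lines are means and bars are SDs cut at 0. The irradiated ratios of Ier3 to Junb (0.385 to 0.552) lie below those of the other groups (0.609 and above), and for Nr4a2 to Nr4a1 irradiated 2 has no point because neither gene had a count there. Jun, Ier3 and Nr4a2 were chosen for low irradiated values, which bears on their ratios.

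Fos encodes c-Fos, the classic short-lived partner of Jun proteins. It had few counts, 30.9, 0 and 9.27 CPM in irradiated, 9.64, 15.5 and 11.6 CPM in cocultured and 0.82, 16.8 and 5.47 CPM in normal libraries. The highest and the lowest library were both irradiated ones, and the groups overlapped. The fitted log2 fold change was 0.67 ± 2.09 in cocultured against normal and 0.12 ± 2.08 in irradiated against cocultured constructs (edgeR, adjusted p = 1 in each), and 0.79 ± 2.09 in irradiated against normal constructs. Without irradiated 1 it was -1.40 in irradiated against cocultured and -0.73 in irradiated against normal constructs, so that the sign rested on that library.

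Fosb encodes FosB, a Fos protein known in brain and muscle for its lasting truncated form, which these 3' counts do not separate. No count fell on it in the 3 irradiated libraries, against 0, 0 and 7.46 CPM in cocultured and 6.57, 3.64 and 3.56 CPM in normal libraries. Over the irradiated group a count of 0 allows up to 3 counts, or 0.126 CPM. With the counts of the other group taken as exact, Fosb was at least 37.5-fold lower in irradiated than in normal constructs. It was at least 18.8-fold lower than in cocultured ones, where a single library supplied all 66 counts. These bounds cover counting error of the irradiated group alone. Irradiated against cocultured did not pass the edgeR test (adjusted p = 0.493), nor did cocultured against normal (log2 fold change -0.88 ± 2.80, adjusted p = 1).

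Fosl1 encodes Fra-1, a Fos protein without a strong activation domain, itself known as an AP-1 target. It had 16.2, 19.7 and 0 CPM in irradiated, 55.1, 60.8 and 49.2 CPM in cocultured and 136, 40.9 and 40.5 CPM in normal libraries. All irradiated libraries lay below all others on TMM sizes, though on library totals irradiated 2 (25.3 CPM) lay above normal 3 (22.4 CPM), and normal 1 was more than 3 times as high as its replicates. The log2 fold change was -2.60 ± 1.25 in irradiated against normal constructs. Against cocultured constructs it was -2.20 ± 1.23, which did not pass the edgeR test (adjusted p = 0.560, unadjusted p = 0.0966). In cocultured against normal constructs it was -0.40 ± 1.17 (adjusted p = 1), with the sign turning to 0.46 without normal 1. By the RefSeq table Fosl1 overlaps Ccdc85b, which had 634 counts in all, so that some reads could belong to either gene.

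Atf3 encodes a stress-induced ATF protein that pairs with Jun proteins and often represses. It had no count in the 3 irradiated libraries, 1.18, 18.1 and 14.2 CPM in cocultured libraries and 0, 0.23 and 1.64 CPM in normal libraries. The 312 cocultured counts, of which 11 were in cocultured 1, stood against 7 normal counts, a ratio of 20.7 after library scaling with a 95% counting interval of 9.92 to 51.9. Atf3 did not pass the filter on low counts and was not tested, so this difference between groups has no test over libraries. For irradiated constructs the floor was 3 counts over the group, and the counts of the other groups were taken as exact. On that footing Atf3 was at least 89.1-fold lower than in cocultured and at least 4.31-fold lower than in normal constructs. As for Fosb, these bounds cover counting error of the irradiated group alone. Error in the 7 normal counts could make the bound against normal constructs smaller. Cocultured 1, at 1.18 CPM, lay within the normal range of 0 to 1.64 CPM.

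Egr1 encodes a zinc finger factor induced by serum and stretch that binds GC-rich sites. It had 149, 376 and 122 CPM in irradiated, 290, 314 and 186 CPM in cocultured and 140, 193 and 155 CPM in normal libraries. Irradiated 2 was the highest and irradiated 3 the lowest library of all 9, and the cocultured libraries lay at 186 and above, overlapping normal 2. The mean was 216 ± 139, 263 ± 67.8 and 163 ± 27.3 CPM in irradiated, cocultured and normal constructs (SD, n = 3 each). Neither cocultured against normal (log2 fold change 0.69 ± 0.43) nor irradiated against cocultured (-0.29 ± 0.43) passed the edgeR test, with adjusted p = 1 in each. In irradiated against normal constructs it was 0.41 ± 0.43, and -0.27 without irradiated 2.

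Nr4a1 (Nur77) and Nr4a2 (Nurr1) encode nuclear receptors that act without a known hormone and are set mainly by how much of them is made. Nr4a1 had 52.0, 0 and 3.99 CPM in irradiated, 117, 45.0 and 19.8 CPM in cocultured and 44.6, 52.9 and 39.4 CPM in normal libraries. Irradiated 1 was within the normal range and the other irradiated libraries were at or near 0. The log2 fold change was -1.71 ± 1.43 in irradiated against cocultured constructs (edgeR, adjusted p = 0.870) and 0.41 ± 1.39 in cocultured against normal constructs (adjusted p = 1). The cocultured against normal value was -0.49 without cocultured 1. Irradiated against normal constructs gave -1.30 ± 1.41. Without irradiated 1 the values were -4.93 in irradiated against cocultured and -4.52 in irradiated against normal constructs, and without cocultured 1 irradiated against cocultured gave -0.81.

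Nr4a2 showed the widest range of the set, with 18.7, 0 and 0.235 CPM in irradiated, 127, 325 and 484 CPM in cocultured and 1462, 363 and 532 CPM in normal libraries. In counts this was 88, 0 and 2 in irradiated libraries, against 1190, 3141 and 4285 in cocultured and 7118, 1596 and 1944 in normal libraries. The irradiated libraries lay far below all others, while the cocultured and normal ranges overlapped. The log2 fold change was -7.02 ± 1.55 in irradiated against normal and -5.69 ± 1.46 in irradiated against cocultured constructs. Between cocultured and normal constructs it was -1.33 ± 1.20 and did not pass the edgeR test (adjusted p = 1, unadjusted p = 0.286).

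Irradiated 2 and 3 are also the libraries with the most genes at 0. The part of missing counts in their low values of Fos, Fosb, Fosl1, Atf3, Nr4a1 and Nr4a2 was not tested. The Nr4a2 to Nr4a1 ratio was 0.361 in irradiated 1 and 0.0588 in irradiated 3, against 1.09, 7.22 and 24.5 in cocultured and 32.8, 6.85 and 13.5 in normal libraries. It could not be formed in irradiated 2, where neither had a count.

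Ier3 encodes a short-lived protein known to bear on survival and on ERK and NF-kB signalling. It had 161, 238 and 152 CPM in irradiated, 370, 448 and 291 CPM in cocultured and 848, 568 and 565 CPM in normal libraries. As with Jun, no library of a group overlapped another group. The means were 184 ± 47.3, 369 ± 78.4 and 660 ± 162 CPM in irradiated, cocultured and normal constructs (SD, n = 3 each). The log2 fold change was -1.84 ± 0.34 in irradiated against normal and -1.01 ± 0.33 in irradiated against cocultured constructs. In cocultured against normal constructs it was -0.84 ± 0.33 and did not pass the edgeR test (adjusted p = 1, unadjusted p = 0.0236), with the normal libraries shared with the comparison by which Ier3 was chosen. Ier2, a gene of like name that is no member, had 40.2, 44.4 and 80.1 CPM in irradiated, 76.6, 68.5 and 28.6 CPM in cocultured and 33.1, 53.4 and 19.4 CPM in normal libraries. The ratio of Ier3 to Ier2 was 4.0, 5.37 and 1.90 in irradiated, 4.82, 6.54 and 10.2 in cocultured and 25.6, 10.6 and 29.1 in normal libraries.

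**Figure D3:**
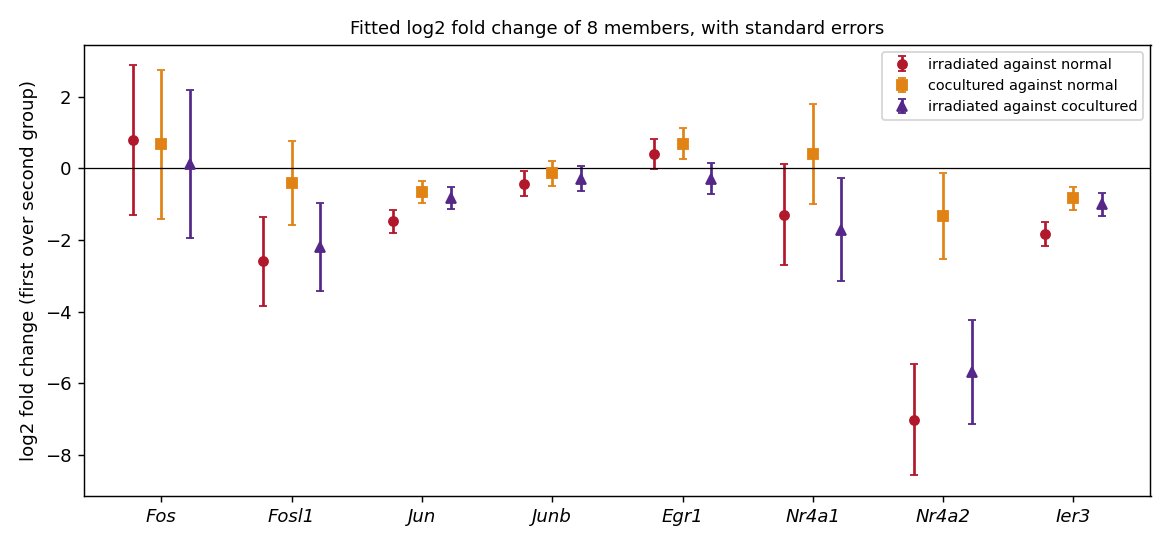
Fitted log2 fold changes of 8 members with bars of 1 standard error, first group over second, for irradiated against normal, cocultured against normal and irradiated against cocultured constructs; Fosb and Atf3, with no count in irradiated libraries, are not drawn. Nr4a2 lies lowest (-7.02 and -5.69 in the comparisons of irradiated constructs), Jun and Ier3 have the smallest errors below 0, and the bars of Fos cross 0 in all 3 comparisons.

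Over the set, 9 of the 10 members passed the filter on low counts, and passing it can depend on the group in which a gene is high. No member passed the threshold of adjusted p under 0.05 in irradiated against normal constructs, where 0.0584% of 11980 genes did (0.0501% lower and 0.00835% higher), and nothing is read from that count because the comparison chose members. With cocultured against normal constructs 0 of 9 passed with edgeR and 1, Ier3, had an unadjusted p under 0.05. Ier3, Jun and Nr4a2 were chosen on these same normal libraries, so nothing is read from the unadjusted p of Ier3. Of all genes, 0% passed with edgeR in cocultured against normal constructs and 492 had an unadjusted p under 0.05. DESeq2 called 84 there and limma voom 0, and no member was called by either. In irradiated against cocultured constructs 0 of the 6 members tested passed and 0 had an unadjusted p under 0.05, beside 0.0334% of all genes. DESeq2 and limma voom also called 0 of these 6.

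On TMM sizes the irradiated libraries were all below the normal ones for 5 of 9 members, Fosb, Fosl1, Jun, Nr4a2 and Ier3, beside 11.8% of all genes tested, and nothing is read from this because 3 of the 5 were chosen for it. All cocultured libraries were below all normal ones for 2 of 9, Jun and Ier3, beside 7.51% of all genes. Both were chosen on these same normal libraries and both separations were lost on library totals, while 0 of the 6 other members tested lay apart in this way. All irradiated libraries were below all cocultured ones for Jun, Nr4a2 and Ier3, which were chosen for low irradiated values, and for 1 of the 6 others, Fosl1, beside 10.6% of all genes. No tested member had the first group wholly above the second in any of the 3 comparisons, where 3.94%, 5.66% and 3.90% of genes did in irradiated against normal, cocultured against normal and irradiated against cocultured constructs. All 3 comparisons share libraries pairwise, so that these counts are not independent of each other.

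Levels in the groups depended on how libraries were scaled. With CPM of the library total in place of TMM, the median log2 fold change of all genes moved by 0.35 in irradiated against normal, by 0.55 in cocultured against normal and by -0.18 in irradiated against cocultured constructs. On that scale Jun had 70.8, 134 and 189 CPM in irradiated, 273, 280 and 198 CPM in cocultured and 323, 298 and 181 CPM in normal libraries, and normal 3 now lay within the irradiated range. Ier3 had 117, 306 and 189 CPM in irradiated, 443, 539 and 343 CPM in cocultured and 818, 516 and 312 CPM in normal libraries, the irradiated ones still lowest, while the cocultured and normal ones overlapped. In cocultured against normal constructs the log2 fold change became -0.10 for Jun and -0.32 for Ier3. Relative to the median of all genes it was -0.58 for Jun and -0.80 for Ier3, against -0.59 and -0.77 on TMM sizes. Subtracting the median takes out a shift shared by all genes, so the nearness of these values follows from the arithmetic.

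**Figure D4:**
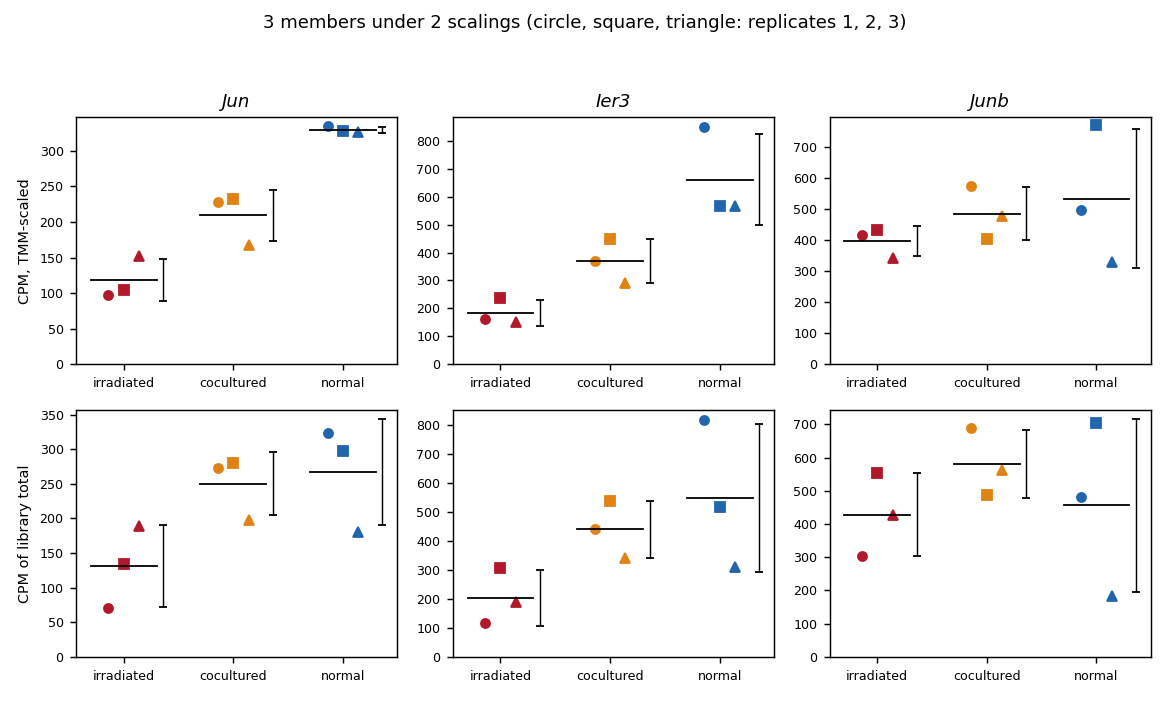
Jun, Ier3 and Junb by library as CPM on TMM-scaled sizes (upper row) and as CPM of the library total (lower row), with irradiated, cocultured and normal constructs from left to right; circles, squares and triangles are replicates 1, 2 and 3, lines are means and bars are SDs of 3 libraries. With library totals normal 3 lies at 181 CPM for Jun, inside the irradiated range, and at 183 CPM for Junb.

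The members also varied together to different degrees. Over the 9 libraries the Pearson correlation of log2(CPM + 1) was 0.90 for Jun with Ier3, 0.82 for Nr4a2 with Ier3, 0.80 for Fosl1 with Nr4a2 and 0.79 for Jun with Nr4a2. The lowest values were -0.41 for Fosb with Egr1 and -0.26 for Fos with Ier3. These describe libraries that share groups, scaling and missing counts, and Jun, Ier3 and Nr4a2 were all chosen for low irradiated against normal values, so that their correlations are in part fixed by that choice. Among genes with at least 50 CPM, those most like Jun were Itgb1 (0.97), Lama4 (0.95) and Tra2a (0.93), and those most like Ier3 were Itgb1 (0.96), Dnajc21 (0.94) and Zbtb7a (0.92). Nr4a2 was most like Ptgs2 (0.99), Col12a1 (0.99) and Cdk2ap2 (0.98), and Fosl1 most like Hbegf (0.98), Osbp2 (0.97) and Socs2 (0.97). Ptgs2, which encodes the prostaglandin synthase COX-2, had 7.67, 0 and 0 CPM in irradiated, 111, 432 and 343 CPM in cocultured and 1274, 272 and 440 CPM in normal libraries.

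Of the wider AP-1 family, 15 subunits including the AP-1 members, 11 were tested and 0 rose or fell with edgeR in any comparison. DESeq2 called 1, Jun, lower in irradiated against normal constructs, the comparison by which Jun was chosen, so nothing is read from that call. Over all 11980 genes DESeq2 called 448 in that comparison. The median log2 fold change was -0.53 in irradiated against normal, -0.08 in cocultured against normal and -0.83 in irradiated against cocultured constructs. All genes tested had medians of -0.21, -0.07 and -0.10. In irradiated against cocultured constructs the median gene was Jun itself, chosen for low irradiated values, so nothing is read from that median. Fosl2, which encodes Fra-2, had 62.8, 128 and 133 CPM in irradiated, 216, 205 and 212 CPM in cocultured and 221, 255 and 194 CPM in normal libraries, the irradiated ones below all others (edgeR, adjusted p = 0.451 against normal). Jund, the most constant Jun gene in many cells, had 99.2, 52.0 and 183 CPM in irradiated, 162, 161 and 221 CPM in cocultured and 187, 185 and 112 CPM in normal libraries, with overlap. Atf7 had log2 fold changes of 0.82 ± 0.62 in irradiated against normal and 1.10 ± 0.63 in cocultured against normal constructs. The related CREB and ATF genes, 9 of 9 tested with 0 called by edgeR, DESeq2 or limma voom, had medians of -1.07, -0.02 and -0.57 in the same order of comparisons, with Atf4, the factor of the integrated stress response, at -1.13 ± 0.37, -0.56 ± 0.36 and -0.57 ± 0.36.

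Of 9 EGR and NR4A genes with their corepressors, 8 were tested and 0 passed with edgeR in any comparison. DESeq2 called 1 lower, Nr4a2, in irradiated against normal and 1 in irradiated against cocultured constructs, beside 448 and 475 of all 11980 genes. Nr4a2 was chosen by its low irradiated against normal level, so nothing is read from its call. The medians of the 8 genes were -1.06 in irradiated against normal, 0.17 in cocultured against normal and -1.25 in irradiated against cocultured constructs. All genes tested had medians of -0.21, -0.07 and -0.10. Nab2, an Egr1 corepressor, had log2 fold changes of 0.29 ± 0.61, -0.14 ± 0.61 and 0.44 ± 0.61 in that order, Nab1 had -0.83 ± 0.62, 0.27 ± 0.61 and -1.10 ± 0.62, and Egr3 had -1.33 ± 2.23, 0.08 ± 2.19 and -1.40 ± 2.23. The corepressors therefore gave values of both signs, each within about 2 standard errors of 0.

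Other serum-induced genes were counted in the same way. Of 36 genes of the IER, KLF, MAF and similar families 35 were tested and 0 passed with edgeR, with 26 negative in irradiated against normal, 17 in cocultured against normal and 27 in irradiated against cocultured constructs, and medians of -0.99, 0.00 and -0.82. DESeq2 called 4 lower, among them Ier3, in irradiated against normal and 3 in irradiated against cocultured constructs, and limma voom 1 in each. Over all 11980 genes DESeq2 called 448 and 475, and limma voom 25 and 105. Ier3 was chosen by its low irradiated against normal level, so nothing is read from its call. Of all genes tested, 41.8%, 46.9% and 46.7% were positive in the 3 comparisons, with medians of -0.21, -0.07 and -0.10. Rgs2, a regulator of G protein signalling, had 55.1, 20.1 and 112 CPM in irradiated, 257, 217 and 463 CPM in cocultured and 420, 251 and 296 CPM in normal libraries. Its irradiated libraries lay below all others, with edgeR adjusted p = 0.151 against normal and 0.255 against cocultured constructs. Klf6 had log2 fold changes of -0.99 ± 0.39 in irradiated against normal and -1.18 ± 0.40 in irradiated against cocultured constructs, and Rhob -0.89 ± 0.42 and -0.82 ± 0.42. Trib1, named after its values were seen, had 33.6, 24.5 and 37.0 CPM in irradiated, 146, 142 and 131 CPM in cocultured and 211, 116 and 146 CPM in normal libraries, with adjusted p = 0.0643 in irradiated against normal constructs in edgeR.

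Feedback genes, the phosphatases, Sprouty proteins and mRNA decay factors that end the early response, were tested for 19 of 20 with 0 called by edgeR, while DESeq2 called 1 lower in irradiated against normal and 2 in irradiated against cocultured constructs. Negative values numbered 17 in irradiated against normal, 8 in cocultured against normal and 17 in irradiated against cocultured constructs. The list had medians of -1.02, 0.16 and -1.09. Of all genes tested, 41.8%, 46.9% and 46.7% were positive in these comparisons, with medians of -0.21, -0.07 and -0.10. DESeq2 called 448 of all genes in irradiated against normal and 475 in irradiated against cocultured constructs. Nfkbia, the NF-kB inhibitor, had log2 fold changes of -0.54 ± 0.35, -0.43 ± 0.35 and -0.11 ± 0.35 in that order, Zfp36l1 had -0.18 ± 0.29, -0.32 ± 0.29 and 0.14 ± 0.29, and Socs3 had -0.84 ± 0.71, -0.14 ± 0.70 and -0.69 ± 0.71. Upstream of the members, 24 of 25 MAP kinase cascade and SRF genes were tested with 0 called by edgeR (1 lower in irradiated against cocultured constructs by DESeq2) and medians of -0.31, 0.07 and -0.05, and Mapk3, which encodes ERK1, had 0.08 ± 0.37, -0.07 ± 0.37 and 0.15 ± 0.37. The signs were thus mixed upstream, with 13, 11 and 13 of the 24 negative.

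Downstream, 21 genes known from textbooks as AP-1 targets were all tested and 0 passed in edgeR. DESeq2 called 3 lower in irradiated against normal and 2 in irradiated against cocultured constructs, and edgeR on library totals called 1 in each. Over all 11980 genes DESeq2 called 448 and 475, and edgeR on library totals 9 in each. In irradiated against normal constructs 20 of the 21 targets were negative with a median of -1.54. In cocultured against normal 13 were negative with -0.22, and in irradiated against cocultured 19 with -1.23. Of all genes tested, 41.8%, 46.9% and 46.7% were positive in these comparisons, with medians of -0.21, -0.07 and -0.10. This list, like the other lists, was chosen with earlier results of these data known, so its counts and medians are a description. The summed level of the 21 targets was 1181 to 1532 CPM in irradiated, 2363 to 3951 CPM in cocultured and 3171 to 6017 CPM in normal libraries. Cxcl1, a neutrophil chemokine, had 292, 457 and 505 CPM in irradiated, 469, 1130 and 1526 CPM in cocultured and 1877, 833 and 940.5 CPM in normal libraries, so that the irradiated libraries lay below the normal ones but overlapped the cocultured ones. Timp1, a metalloproteinase inhibitor, had 297, 293 and 303 CPM in irradiated, 374, 622 and 422 CPM in cocultured and 544, 569.5 and 275 CPM in normal libraries. Ptgs2, given above, had edgeR adjusted p = 0.0932 in irradiated against normal and 0.184 in irradiated against cocultured constructs.

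Markers of other cell types moved with some libraries. The 13 macrophage and leukocyte markers summed to 0 to 38.1 CPM in irradiated, 0.113 to 7.55 CPM in cocultured and 12.1 to 60.7 CPM in normal libraries, and 2 of them, Csf1r and C1qa, were tested and did not pass. Cd3e and Cd79a had no count in any library, and Ptprc and Lyz2 stayed at 0.113 CPM or below. The 10 endothelial and pericyte markers summed to 0.117 to 165, 11.8 to 22.9 and 9.09 to 195 CPM and the 7 adipocyte markers to 0 to 12.1, 0 to 14.1 and 4.11 to 111 CPM in irradiated, cocultured and normal libraries. The 10 fibroblast markers, which C2C12 cells also express in part, summed to 8038 to 13023, 11850 to 16073 and 10691 to 17809 CPM, and the 8 Schwann and neural markers to 324 to 509, 256 to 513 and 178 to 463 CPM. Irradiated 1 and normal 3, the libraries with the most muscle marker RNA, were also the highest of all for Rgs5, a pericyte gene, at 64.1 CPM in irradiated 1 and 101 CPM in normal 3, while Emcn, Plin1 and Gfap had no count in any library. No marker of these lists or of muscle passed the edgeR test in any comparison. DESeq2 called 2 fibroblast markers higher and 1 muscle marker lower in irradiated against normal constructs, beside 448 of all genes. In irradiated against cocultured constructs it called 475 of all genes. Of the markers, 1 fibroblast, 1 endothelial or pericyte and 1 muscle marker were called higher there and 1 muscle marker lower. The part of such RNA in the member levels was not tested.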

How the data were processed

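RNA of 9 constructs (3 each irradiated, cocultured and normal, grouped by title) was made into QuantSeq 3' libraries from 100 ng and read as single-end 75 bp reads, per the labels' protocols. The authors deposited 1 file of raw read counts by gene symbol for each library; FastQC, STAR, HTSeq and the builds GRCm39 and mm39 are named per the submitters' processing notes. Nothing used here states versions, annotation, strand setting or the handling of duplicate reads, so overlapping genes may share reads. In all 9 files the column is numbered 1 higher than the label, and the series' own record of files was followed. No pair of replicates agreed within counting noise.

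One edgeR 4.0.16 quasi-likelihood model (R 4.3.3, filterByExpr defaults, TMM, group as the term) was fitted to all 9 libraries and 11980 genes, with Benjamini-Hochberg adjustment over all of them and a threshold of 0.05. Standard errors are approximate, |log2 fold change| over root F. DESeq2 1.42.0 and limma 3.58.1 were alternatives, with other scalings and filters, a replicate block and left-out libraries. The script was tested on simulated data. Floors are 3 counts, intervals 95% exact binomial, for counting error only. Members and the 14 gene lists were chosen with earlier results of these data known. All members are named, with the called or else the 3 highest tested genes of each list, and for members of at least 10 CPM the 3 genes of at least 50 CPM with the highest Pearson r. For the marker lists sums are given. Promoters are RefSeq's (GRCm38.p6), without coordinates from the build of the counts.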

Additional observations from a re-analysis of the deposited data

How the results depend on the processing

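Of the members, 0 passed the threshold in cocultured against normal constructs and 0 of those tested in irradiated against cocultured constructs under all 21 alternatives. In irradiated against normal constructs 0 passed with edgeR and 3 with DESeq2 (Jun, Nr4a2 and Ier3, the genes chosen on that comparison). The count was 2 without a filter, and 1 with limma voom, with the replicate block and without both normal 3 and irradiated 1. It was 0 to 1 with 1 library left out, and 1 without irradiated 1. The fit without both irradiated 2 and irradiated 3, chosen after seeing the data, leaves 1 irradiated library, so its other calls are left out. Over all genes the counts moved more. Irradiated against normal had 7 calls, and 448 with DESeq2, 25 with limma voom, 130 without a filter, 0 with the 6 libraries compared alone, 23 with the replicate block, 20 without normal 3 and irradiated 1, 190 without irradiated 2 and 3, and 6 to 147 with 1 library left out (147 without irradiated 1). Cocultured against normal had 0 calls, and 84 with DESeq2, 52 without a filter, 1 without normal 3 and irradiated 1, 96 without irradiated 2 and 3. Irradiated against cocultured had 4 calls, and 9 with library totals, 475 with DESeq2, 105 with limma voom, 153 without a filter, 0 with the 6 libraries alone, 12 with the replicate block, 21 without normal 3 and irradiated 1, 449 without irradiated 2 and 3, and 1 to 97 with 1 library left out (97 without irradiated 1, 1 without normal 1 or normal 3). With mitochondrial genes and Gm26917 removed together, the calls in these 3 comparisons were 7, 0 and 4 of 12042 genes. Among single libraries, leaving out irradiated 1 moved both counts of the irradiated group most, and the cause was not tested.

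In the gene lists, 0 were called with edgeR, while without irradiated 1 it called 1 EGR or NR4A, 2 serum-induced and 1 AP-1 target gene lower in irradiated against normal constructs, and 1 of each in irradiated against cocultured constructs. Over all 13294 genes tested without irradiated 1 the calls were 147 and 97. These lists include Nr4a2 and Ier3, chosen for low irradiated values. Calls without irradiated 2 and 3 are left out, because 1 irradiated library remained.

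Signs turned for members with small differences. In cocultured against normal constructs Fosl1 was 0.043 with library totals and 0.46 without normal 1, with a lowest value of -0.69, Junb was 0.34 with library totals and 0.23 without normal 2, with a lowest of -0.39, and Nr4a1 was -0.24 with the replicate block and -0.49 without cocultured 1, with 0.83 without cocultured 3. In irradiated against cocultured constructs Fos was -0.37 with library totals, -2.53 with limma voom, -1.39 without normal 3 and irradiated 1, -1.40 without irradiated 1 and -0.027 without cocultured 1, with 1.32 without irradiated 2 and 3. Jun, Ier3 and Nr4a2 were negative in all 22 fits of all 3 comparisons. These genes were chosen for low irradiated against normal values and the fits share libraries, so nothing is read from their constant sign. The fitted value of Nr4a2 in irradiated against normal constructs was -12.6 without irradiated 1, where 2 counts were left in the irradiated group.

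Replicate numbers are shared between groups, but the correlations of same-numbered libraries' deviations were -0.07 to 0.05, so that the numbers were not taken as pairs. With the replicate block the calls are those given above. Fos, Fosb, Atf3 and the irradiated values of Nr4a1 and Nr4a2 rest on few counts, and their folds carry the widest errors.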

Other observations

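The heat shock genes, another rapidly induced group, were set beside the members. All 12 were tested and 0 passed in edgeR. In irradiated against cocultured constructs DESeq2 called 2 lower and limma voom 1, beside 475 and 105 of all genes. The log2 fold changes had medians of -0.01 in irradiated against normal, 0.30 in cocultured against normal and -0.26 in irradiated against cocultured constructs. Hspb1, a small heat shock protein abundant in muscle, had 202, 207 and 242 CPM in irradiated, 476, 473 and 524 CPM in cocultured and 385, 423 and 192 CPM in normal libraries. Every irradiated library was below every cocultured one (log2 fold change -1.18 ± 0.34, edgeR adjusted p = 0.412). Hsp90aa1 had -0.25 ± 0.31 and Hspb8 0.02 ± 0.57 in that comparison.

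The genes most like the remaining members over the 9 libraries, by Pearson r of log2(CPM + 1), were as follows. Junb was most like Smarca4 (0.93), Acbd3 (0.92) and Dynll1 (0.87), and Egr1 most like Nupr1, a stress-induced nuclear protein gene (0.93), Chtop (0.92) and Actn4 (0.92). Nr4a1 was most like Mrpl52 (0.97), Wbp4 (0.96) and Nucks1 (0.95), and Fos most like Spr (0.97), Slc16a1 (0.92) and Dap3 (0.91). These had the highest r of 3123 or 3124 genes compared.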
